A study of Mus musculus with 20 samples.

Results

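Acetylation of lysine 27 of histone H3 (H3K27ac) was compared between hematopoietic stem cells (HSCs) of the mouse fetal liver and of the adult bone marrow. The regions described are the H3K27ac peaks on chromosomes 1 to 19, 23368 in the fetal and 17834 in the adult list, which together make 41202 of the 216176 peaks that the series holds on these chromosomes for 4 histone marks. They come from 4 of the 20 samples, 2 libraries per stage, and the authors' list for each stage is titled as combined, so that every value below stands for 1 pooled peak call. Cells of both stages were from B6129SF1 mice and were sorted as lineage-negative, Sca1-positive, cKit-positive and CD135-negative, at embryonic day 14.5 from fetal liver and at 6 to 8 weeks from bone marrow. Each immunoprecipitation used 50000 sorted cells and the same antibody at both stages. Whether the animals of a library were pooled is not given in the sources used here. The sorted identity was not checked against marker genes, because no mm9 gene annotation, the build of the files, was used here, and peaks are given by position in mm9, counted from 1.

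H3K27ac is deposited by the acetyltransferases p300 and CBP and lies at active promoters and active enhancers. Promoters also carry trimethylation of lysine 4 (H3K4me3), while enhancers carry monomethylation of the same residue (H3K4me1). Trimethylation of lysine 27 (H3K27me3), set by Polycomb repressive complex 2, occupies the residue that is acetylated in H3K27ac, so that 1 histone tail cannot carry both. Fetal liver HSCs divide and expand, whereas most adult marrow HSCs are quiescent.

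The fetal list was longer and its peaks were wider. It covered 49.6 Mb and the adult list 32.8 Mb, a ratio of 1.51 in covered length and 1.31 in peak number. Median width was 1860.5 bp in the fetal list, with quartiles of 1275 and 2539 bp and a widest peak of 27779 bp. In the adult list the median was 1641 bp, with quartiles of 1181 and 2214 bp and a widest peak of 15643 bp. Neighbouring peaks of a list lay a median of 9322 bp apart in the fetal and 12756.5 bp apart in the adult list.

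To ask which acetylated regions the stages share, peaks were matched by an overlap of at least 1 bp. An adult peak was found for 15206 fetal peaks (65.1%, 95% exact interval 64.5 to 65.7), and 8162 fetal peaks, or 34.9%, had none. A fetal peak was found for 15802 adult peaks (88.6%, 88.1 to 89.1), and 2032 adult peaks, or 11.4%, had none. Peaks without a match are called fetal-only and adult-only here, which says only that no peak was listed at the other stage. They held 24.97% of the covered length of the fetal list and 7.09% of the adult one. Intervals in this text are Clopper-Pearson intervals over peaks. They cover counting error alone, treat neighbouring peaks as independent, and carry no error between libraries, so no test between stages was possible. The read depth behind each list is unknown, and its part in the number and width of peaks was not tested. With the 17834 best-scoring peaks of each list, the shares were 77.4% of fetal and 81.3% of adult peaks.

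Few matches sat near the 1 bp limit. Among the matched peaks, 35 fetal and 27 adult ones shared under 100 bp with the other list. On the other side of the limit, 36 fetal-only and 30 adult-only peaks lay under 100 bp from a peak of the other stage, the nearest at 12 and 11 bp.

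Merging both lists gave 25111 acetylated regions, of which 14917 (59.4%) were shared, 8162 (32.5%) fetal-only and 2032 (8.09%) adult-only. Shared regions were mostly simple. In 13947 of them, or 93.5%, 1 fetal peak met 1 adult peak. A single fetal peak spanned several adult peaks in 697 regions, against 196 in which a single adult peak spanned several fetal ones, and 77 regions held several of each. The fetal peak over the most adult peaks was the widest of its list, on chromosome 15 from 101071122 to 101098900, where 6 adult peaks covered 14086 of its 27779 bp. Another fetal peak of 20835 bp, on chromosome 19 from 41402299 to 41423133, held 5 adult peaks over 11498 bp. The fetal peak on chromosome 9 from 65387722 to 65402054 measured 14333 bp, with 5 adult peaks over 10606 bp, and it overlapped no H3K4me3 at either stage. In the opposite direction, the adult peak on chromosome 6 from 133984197 to 133995965 (11769 bp) spanned 3 fetal peaks, and both stages had H3K4me3 there, over 7424 bp in the fetal and 10897 bp in the adult list.

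Within the 13947 simple pairs, the fetal peak was usually the wider one. Its median width was 2118 bp, against 1744 bp for the adult partner, and it was wider in 10423 pairs (74.7%). The median log2 ratio of fetal to adult width was 0.21, with quartiles of -0.0029 and 0.49. The adult peak lay wholly inside the fetal peak in 7716 pairs (55.3%), and the fetal peak inside the adult one in 1421 (10.2%). A fetal peak more than 2 times as wide as its partner was found in 1139 pairs, an adult peak more than 2 times as wide in 83. The excess was larger away from promoters. In 10346 pairs with H3K4me3 at both stages the median log2 ratio was 0.16, and 2.80% had a fetal peak more than 2 times as wide. In 3158 pairs without H3K4me3 at either stage the ratio was 0.52 and this share 24.0%. Median adult widths in these groups were 1835 and 1431 bp, while the fetal medians were 2097 and 2195.5 bp. The excess also differed with peak score. Pairs were divided into 5 equal classes by the mean of both within-list score ranks. A fetal peak more than 2 times as wide was found in 14.1% of class 1, the lowest, 15.5% of class 2 and 1.08% of class 5. The part of score in the difference by H3K4me3 was not tested.

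The 3 pairs with the largest fetal to adult width ratio all lacked H3K4me3 and H3K27me3 at both stages. On chromosome 3 from 121040907 to 121050572, a fetal peak of 9666 bp met an adult peak of 853 bp. On chromosome 16 from 93026622 to 93034582 the widths were 7961 and 824 bp, and on chromosome 6 from 65540002 to 65547806 they were 7805 and 827 bp. Fetal H3K4me1 covered 7782, 4625 and 3871 bp of these regions. The 3 pairs with the smallest ratio were less extreme. They were on chromosome 8 from 97514823 to 97518897 (815 bp fetal, 4075 bp adult), chromosome 19 from 5869589 to 5873284 (775 and 3696 bp) and chromosome 5 from 123567822 to 123570848 (752 and 3027 bp). The pairs on chromosomes 8 and 19 carried H3K4me3 at both stages, and the pair on chromosome 5 did not.

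Stage-only peaks were narrower than shared peaks in both lists. Fetal-only peaks had a median width of 1330 bp, against 2153 bp for shared fetal peaks. Adult-only peaks had a median of 1038.5 bp, against 1743 bp. Peaks under 1 kb made up 24.9% of fetal-only and 44.3% of adult-only peaks, compared with 4.70% and 10.7% of the shared peaks of the same lists. Wide stage-only peaks were nearly all fetal, but fetal-only peaks were also more numerous and fetal peaks wider in general. Over 3 kb were 310 of 8162 fetal-only peaks (3.80%) and 9 of 2032 adult-only ones (0.44%), and over 5 kb there were 33 and 1. Of the shared peaks, 21.9% of fetal and 9.99% of adult ones were over 3 kb.

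**Figure D1:**
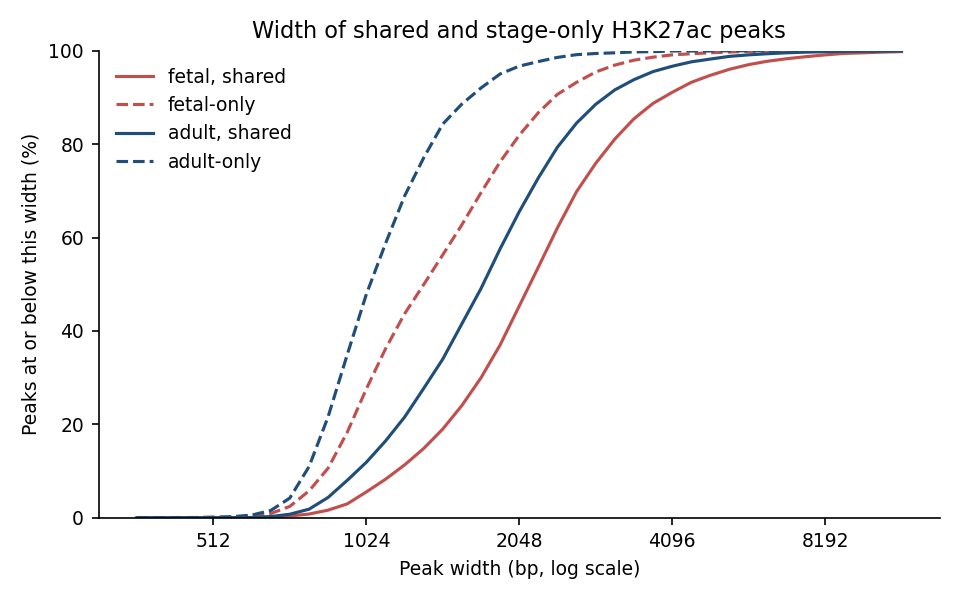
Cumulative share of H3K27ac peaks (y axis, percent) at or below each width (x axis, bp, log scale) for shared peaks (solid lines) and stage-only peaks (dashed lines) of the fetal (red) and adult (blue) lists. Stage-only curves lie to the left of the shared curve of the same list, with medians of 1330 against 2153 bp in the fetal and 1038.5 against 1743 bp in the adult list.

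Scores are the authors' own values from the peak caller, without a stated unit, and were used only to order peaks within a list. The median percentile of fetal-only peaks in their list was 23.4, against 66.4 for shared fetal peaks. For adult-only peaks it was 15.2, against 55.5. Sharing therefore followed the score at both stages. When each list was divided into 10 equal classes by score, the share of fetal peaks with an adult peak was 21.4% (19.8 to 23.2) in class 1, the lowest, 61.6% (59.6 to 63.6) in class 5 and 99.7% (99.3 to 99.9) in class 10. For adult peaks these shares were 61.9% (59.6 to 64.2), 94.3% (93.1 to 95.3) and 99.9% (99.6 to 99.99). Of the better-scoring peaks down to the median of their list, 91.0% of fetal and 99.4% of adult ones had a partner in the full list of the other stage. Above the median score, 1046 fetal-only peaks remained and 55 adult-only peaks. Only 8 fetal-only and 2 adult-only peaks were in class 10. At equal width the scores of stage-only peaks were also lower. In the fifth of 10 width classes their median percentile was 35.3 against 54.6 for shared fetal peaks, and 30.8 against 49.5 in the adult list.

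At equal score, fetal-only peaks were broader than shared ones from class 3 upward. In score class 7 the 290 fetal-only peaks had a median width of 2740 bp and the shared peaks 2149 bp, and in class 8 the medians were 3430 bp over 121 peaks and 2369 bp. In class 1 they were 897 and 910 bp. Fetal-only peaks mostly lacked H3K4me3 and shared fetal peaks mostly had it, and width differed with this mark. In class 3 of 5 equal score classes, median width was 2160.5 bp over all fetal peaks without H3K4me3 and 1718 bp over those with it. The part of H3K4me3 in the difference between fetal-only and shared peaks was not tested. Adult-only peaks differed little in width from shared peaks of the same score in classes 1 to 5, which held 1977 of them, with 860 and 880 bp in class 1 and 1549.5 and 1604 bp in class 5. In 1 to 1 pairs the order of scores was similar at both stages, with a Pearson's r of percentiles of 0.75 over 13947 pairs. It was 0.81 over pairs with H3K4me3 at both stages and 0.50 over pairs without H3K4me3. These are correlations across peaks of 1 pair of lists, and peaks are not independent replicates.

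Fetal peaks with and without the promoter mark differed in how often they were shared. Of 12701 fetal peaks with H3K4me3 in either stage's list, here called promoter-type, 91.5% (91.0 to 92.0) had an adult H3K27ac peak. Of 10667 fetal peaks without H3K4me3, here called distal, 33.6% (32.7 to 34.5) had one. Among adult peaks the shares were 91.9% (91.4 to 92.4) of 12813 promoter-type and 80.2% (79.1 to 81.3) of 5021 distal peaks. Each list was also divided into 5 equal score classes. In class 3, 91.8% (90.6 to 92.9) of promoter-type and 43.9% (41.9 to 46.0) of distal fetal peaks were shared, and in class 1 the shares were 60.3% (57.4 to 63.2) and 13.4% (12.3 to 14.6). In the adult list the order was the opposite in the lower classes, with 60.2% (57.5 to 62.8) of promoter-type and 67.9% (65.9 to 69.8) of distal peaks shared in class 1. From class 3 upward, 95.1% or more of the adult peaks of both types were shared.

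**Figure D2:**
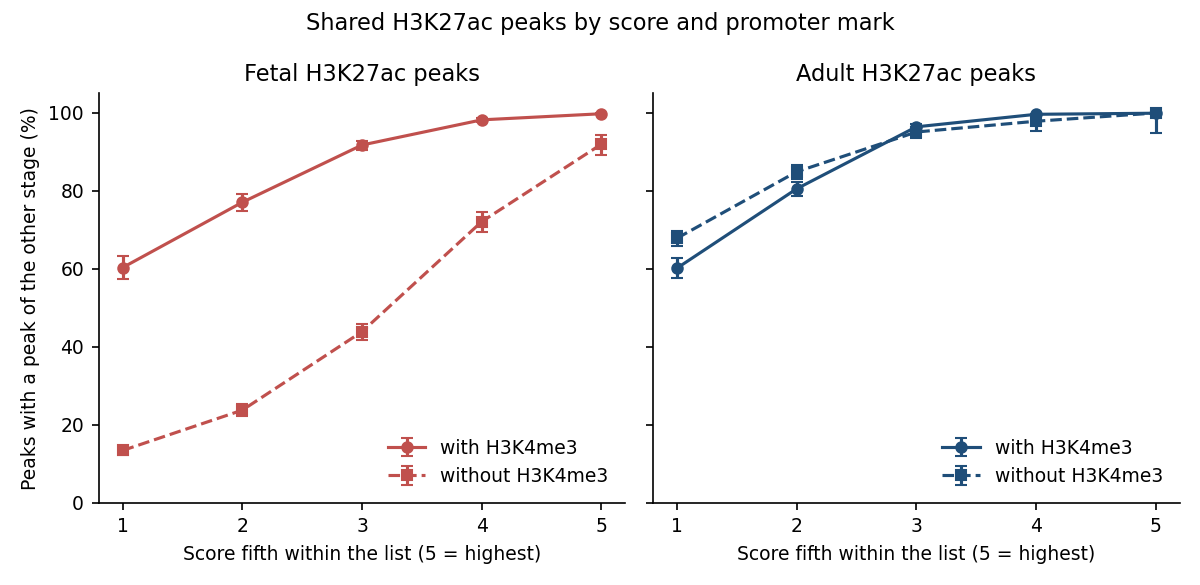
Share of H3K27ac peaks with a peak of the other stage (y axis, percent, with 95% exact intervals) in 5 equal score classes of each list (x axis, 5 the highest) for peaks with (circles, solid) and without (squares, dashed) H3K4me3 in either stage's list. In the fetal list the distal curve lies below the promoter-type curve in every class, from 13.4 against 60.3% in class 1 to 92.0 against 99.8% in class 5, while the adult curves differ less, with 67.9 against 60.2% in class 1.

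Fetal-only acetylation was therefore mostly distal and marked by H3K4me1. Of the 8162 fetal-only peaks, 1076 (13.2%, 12.5 to 13.9) had H3K4me3 at either stage, compared with 76.5% (75.8 to 77.1) of shared fetal peaks. Fetal H3K4me1 was found at 85.7% (85.0 to 86.5) of fetal-only peaks and 91.3% (90.8 to 91.7) of shared fetal peaks. Above the median score this order turned, with 96.1% of fetal-only and 93.3% of shared peaks. Adult H3K4me1 was found at 14.6% (13.8 to 15.4) of them, and at 23.3% (22.6 to 23.9) of shared fetal peaks, so that it was listed at few peaks of either kind. None of the other 3 marks was listed at either stage at 933 fetal-only peaks (11.4%). Adult-only peaks were a different mixture. H3K4me3 was present at 1037 of 2032 (51.0%, 48.8 to 53.2), and at 877 of them at both stages. Among shared adult peaks the share with H3K4me3 at either stage was higher, at 74.5% (73.8 to 75.2). Fetal H3K4me1 was found at 76.1% (74.2 to 77.9) of adult-only peaks, where fetal H3K27ac was not listed. This too was less than at shared adult peaks, of which 89.9% (89.4 to 90.4) had it.

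Polycomb marking divided the stage-only peaks further. H3K27me3 of the fetal list overlapped 554 adult-only peaks (27.3%, 25.3 to 29.3), against 5.99% (5.63 to 6.37) of shared adult peaks and 3.08% (2.71 to 3.47) of fetal-only peaks. At 483 adult-only peaks it covered 50% or more of the peak, and over the 554 the median covered share was 100%. The difference was present at like scores. In class 1 of 5 fetal H3K27me3 overlapped 24.2% (21.9 to 26.7) of adult-only and 6.13% (5.19 to 7.19) of shared adult peaks, and in class 2 it overlapped 33.1% (29.4 to 36.9) and 9.71% (8.67 to 10.8). Adult H3K27me3 was still listed at 297 of the 554 peaks and not at the other 257. H3K27me3 of the adult list was also more frequent at adult-only than at shared adult peaks. It overlapped 299 of 2032 adult-only peaks (14.7%, 13.2 to 16.3) and 347 of 15802 shared ones (interval 1.97 to 2.44%). The excess at adult-only peaks was therefore not limited to fetal H3K27me3. Adult-only peaks with H3K27me3 of either stage were promoter-type in 542 of 556 cases, much as shared adult peaks with it, in 962 of 974. These 542 were further from a shared peak, at a median of 38.6 kb, than the 981 adult-only peaks with neither H3K4me3 nor H3K27me3, at 9.02 kb.

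The converse, fetal H3K27ac with adult H3K27me3, was rare. Adult H3K27me3 overlapped 143 fetal-only peaks (1.75%, 1.48 to 2.06) and 357 shared fetal peaks (2.35%, 2.11 to 2.60), and it covered 50% or more of 58 fetal-only peaks. Above the median score the order of these shares turned, with 2.01% of fetal-only and 1.37% of shared peaks. Where adult H3K27me3 overlapped a fetal-only peak, it covered a median of 37.5% of that peak, against the 100% above for fetal H3K27me3 at adult-only peaks. The part of this difference between the H3K27me3 lists in the shares of both directions was not tested.

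**Figure D3:**
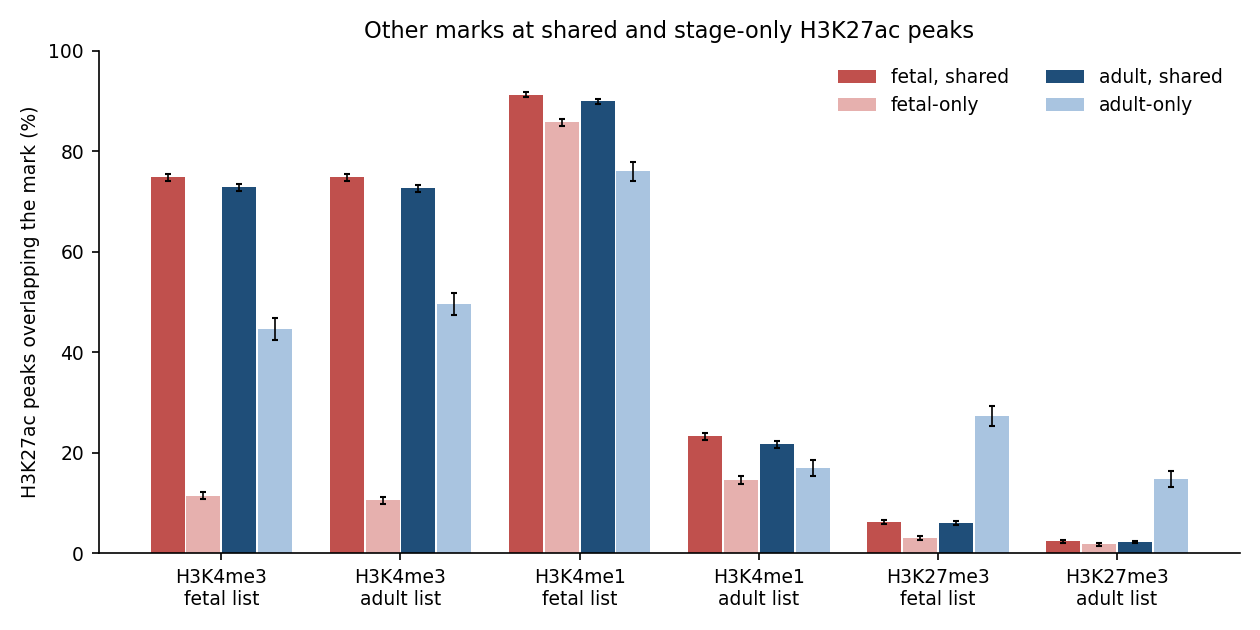
Share of H3K27ac peaks (y axis, percent, with 95% exact intervals) that overlap H3K4me3, H3K4me1 or H3K27me3 of the fetal or adult list (x axis), for shared fetal, fetal-only, shared adult and adult-only peaks. Fetal-only peaks have little H3K4me3 (11.4% in the fetal list). Adult-only peaks have the most fetal H3K27me3 (27.3%, against 5.99% of shared adult peaks) and the most adult H3K27me3 (14.7%).

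Single fetal-only peaks showed both patterns. The highest-scoring one, on chromosome 11 from 95865234 to 95869731 (4498 bp), reached the score of 3100 at which values pile up. Fetal H3K4me3 covered all 4498 bp of it, and no adult H3K4me3 was listed there. Adult H3K27me3 covered 4436 bp, against 931 bp of fetal H3K27me3. The region thus held the promoter and acetyl marks in the fetal lists and the Polycomb mark over nearly its whole width in the adult list. A second promoter-type peak, on chromosome 16 from 22160809 to 22164133 (3325 bp), had H3K4me3 over 3325 bp in the fetal and 3200 bp in the adult list, with 2302 bp of adult and 378 bp of fetal H3K27me3. The other 3 of the 5 highest-scoring fetal-only peaks were distal. They lay on chromosome 12 from 80939289 to 80945801 (6513 bp), chromosome 1 from 89723387 to 89727161 (3775 bp) and chromosome 13 from 83202946 to 83208464 (5519 bp). Fetal H3K4me1 covered 6312, 2359 and 2846 bp of them, and no H3K4me3 or H3K27me3 was listed at either stage.

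The 5 widest fetal-only peaks were between 6936 and 8126 bp. The widest, on chromosome 13 from 112767780 to 112775905, had fetal H3K4me1 over 3587 bp and lay 13.2 kb from the nearest shared peak. The second, on chromosome 17 from 5800897 to 5808862 (7966 bp), had 5194 bp of fetal H3K4me1 with 1225 bp of fetal and 500 bp of adult H3K27me3. The peak on chromosome 3 from 59010021 to 59017088 (7068 bp) was the only 1 of the 5 with H3K4me3, over 835 bp in the fetal list. The peaks on chromosome 6 from 115855254 to 115862315 (7062 bp) and on chromosome 4 from 95511496 to 95518431 (6936 bp) had fetal H3K4me1 over 6548 and 6432 bp. They lay 50.7 and 114.5 kb from a shared peak.

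Adult-only peaks of high score were few. The highest-scoring one, on chromosome 15 from 85499155 to 85502979 (3825 bp), had fetal H3K27me3 over 3727 bp and none in the adult list. H3K4me3 was listed there over 2040 bp in the fetal and 2862 bp in the adult cells. The widest and second-highest, on chromosome 4 from 101180232 to 101185315 (5084 bp), had H3K4me3 over 1831 bp in the fetal and 3156 bp in the adult list. It lay 86.7 kb from a shared peak and had 1582 bp of fetal H3K27me3, without any listed in the adult. On chromosome 19 from 5740768 to 5744585 (3818 bp), 3367 bp carried fetal H3K27me3 and none adult H3K27me3. These 3 regions therefore carried both H3K4me3 and H3K27me3 in the fetal lists, and H3K4me3 with H3K27ac in the adult lists.

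Other adult-only peaks lacked this fetal state. The peak on chromosome 7 from 50691583 to 50695510 (3928 bp) lay 0.245 kb from a shared peak and had H3K4me3 only in the adult list, over 1524 bp. The peak on chromosome 17 from 56952554 to 56955842 (3289 bp) had neither H3K4me3 nor H3K27me3 at either stage. On chromosome 2 from 102711465 to 102714935 an adult-only peak of 3471 bp was distal, with 2627 bp of fetal H3K4me1.

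Stage-only regions clustered along chromosomes with others of their own stage. After a fetal-only region, the next region along the chromosome was fetal-only in 42.1% of cases (41.0 to 43.2), against 28.6% (27.8 to 29.3) after a shared region and 22.9% (21.1 to 24.8) after an adult-only region. After an adult-only region the next was adult-only in 13.4% (11.9 to 15.0), against 8.75% (8.30 to 9.21) after a shared and 5.57% (5.08 to 6.09) after a fetal-only region. Over all regions, 32.5% of next regions were fetal-only and 8.09% adult-only. The tendency was strongest at short range. For gaps under 5 kb, 50.5% (48.3 to 52.7) of the regions after a fetal-only region were fetal-only, and 2.81% (2.14 to 3.62) were adult-only. The same shares were 31.0% (29.3 to 32.6) and 10.3% (9.22 to 11.4) after a shared region, and 36.9% and 8.30% after any region. After an adult-only region at this range, 19.1% (15.7 to 22.9) were adult-only and 16.1% (12.9 to 19.6) fetal-only. For gaps of over 100 kb the share that was fetal-only was 36.4% (33.8 to 39.0) after fetal-only and 33.2% (31.3 to 35.2) after shared regions, with overlapping intervals. Among regions without H3K4me3 alone, the excess of same-stage neighbours over that after shared regions was 11.9 percentage points for fetal-only and 7.24 for adult-only regions, against 13.52 and 4.65 over all regions.

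**Figure D4:**
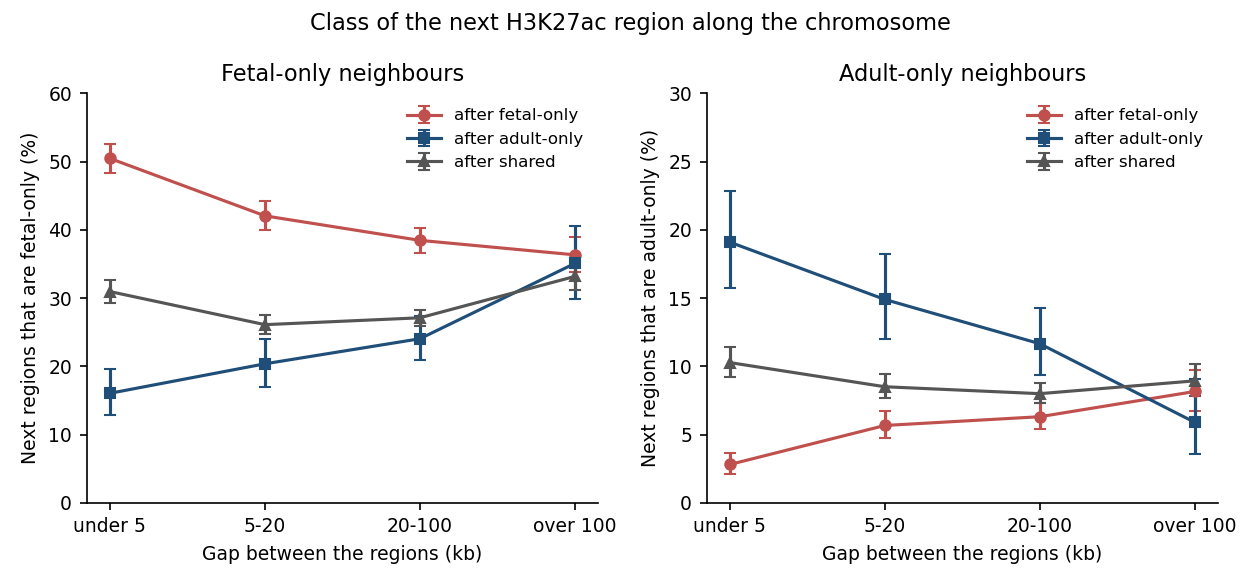
Share of next regions that are fetal-only (left, y axis, percent) or adult-only (right) after a fetal-only (red circles), adult-only (blue squares) or shared region (grey triangles), by the gap between the 2 regions (x axis, kb), with 95% exact intervals. Same-stage neighbours are most frequent under 5 kb, at 50.5% for fetal-only and 19.1% for adult-only regions, and for gaps over 100 kb the intervals of the 3 curves overlap.

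Runs of neighbouring fetal-only regions were common and runs of adult-only regions short. Of the fetal-only regions, which made up 32.5% of all regions, 64.3% lay in runs of 2 or more and 13.9% in runs of 5 or more, of which there were 189. For shared regions, 59.4% of all, these shares were 84.8% and 40.1%. Of the adult-only regions 76.3% stood alone, and 5 runs reached 5 regions. A rarer class forms shorter runs at any level of clustering, so these counts do not compare the stages or classes. A frequent class forms runs without any clustering, so they do not measure clustering either. The longest fetal-only run held 13 regions on chromosome 6 from 136927233 to 137645633. Its 13 peaks were 632 to 2335 bp wide, at percentiles of 0.21 to 50.2 of the list, and 11 of them overlapped fetal H3K4me1 and 1 H3K4me3. A run on chromosome 13 from 36223145 to 37438094 held 10 regions without H3K4me3, 9 of them with fetal H3K4me1. Another run of 10, on chromosome 13 from 111330940 to 111890692, held 18367 bp of fetal H3K27ac and no H3K4me3 or H3K27me3 at either stage. Among several runs of 9 regions, the 2 with the widest span were on chromosome 4 from 63222804 to 65064524 and on chromosome 19 from 57696287 to 58528740. The 5 runs named spanned 559753 bp or more each, of which fetal H3K27ac covered 11998 to 18367 bp. Fetal H3K27me3 was listed in 4 of these intervals, over 8076 bp on chromosome 6, 21618 bp in the run of 10 from 36223145, 8539 bp on chromosome 4 and 3694 bp on chromosome 19.

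The longest adult-only run lay in an interval rich in fetal H3K27me3. It held 8 regions on chromosome 4 from 129628739 to 129759861, and fetal H3K27me3 covered 43195 bp of this interval in 21 peaks. Adult H3K27me3 covered 3715 bp of it. Of the 8 adult H3K27ac peaks, 735 to 1830 bp wide, 5 overlapped fetal H3K27me3 and 1 adult H3K27me3. Adult H3K4me3 was present at 3 of the 8 and fetal H3K4me3 at 2. The other adult-only runs of 5 or more all held 5 regions, and the 2 with the widest span were on chromosome 13 from 98771565 to 98976781 and on chromosome 6 from 88062724 to 88116877. In these 2 intervals fetal H3K27me3 covered 1379 and 1077 bp and adult H3K27me3 none.

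Counts in bins of 1 Mb showed where stage-only regions accumulate. Over 2479 bins the mean was 3.29 fetal-only, 0.82 adult-only and 6.02 shared regions, with variance to mean ratios of 4.56, 2.60 and 9.39. All 3 classes were thus unevenly spread. For clustered counts this ratio also depends on the mean, so it does not rank the classes. With equal numbers of top-scoring peaks the ratio was 2.87 for fetal-only and 3.45 for adult-only regions, so the order of the stages in this ratio turned. Both stage-only classes were more numerous where shared regions were dense. The 742 bins with 1 to 4 shared regions held 2.07 fetal-only and 0.31 adult-only regions on average, and the 172 bins with 20 or more held 7.79 and 3.53. As a share of all regions in these bins, the 2 classes went opposite ways. Fetal-only regions made up 43.8% in the former bins and 20.6% in the latter, adult-only regions 6.60% and 9.33%. The bins were grouped by their shared regions, which also count in the denominator of these shares. A fall of a stage-only share is thus partly built into the grouping, and the fetal-only fall is not read as a result. Bins that held fetal-only and no shared regions numbered 109, with 187 fetal-only regions in all.

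The bins with the most fetal-only regions were on chromosome 4 from 134000001 to 135000000, with 25 fetal-only, 4 adult-only and 38 shared regions, on chromosome 2 from 167000001 to 168000000, with 21, 2 and 30, and on chromosome 10 from 120000001 to 121000000, with 21, 2 and 15. In the last of these, fetal-only regions outnumbered the shared ones. The most adult-only regions were in the bin on chromosome 10 from 80000001 to 81000000, which held 15 adult-only, 7 fetal-only and 54 shared regions. No bin had more shared regions. The adjacent bin from 79000001 to 80000000 and the bin on chromosome 4 from 129000001 to 130000000 both held 11 adult-only regions, with 7 and 6 fetal-only and 46 and 28 shared ones. The bin on chromosome 4 includes the longest adult-only run. By chromosome, the fetal-only share of regions was between 26.3% on chromosome 11 and 40.8% on chromosome 13, and the adult-only share between 6.06% on chromosome 13 and 10.95% on chromosome 17.

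Fetal-only peaks lay farther from a shared peak than shared fetal peaks lay from each other, while in the adult list the difference was slight. The ratio of median distances, stage-only to shared, was 1.28 in the fetal and 1.08 in the adult list. From centre to centre the ratios were 1.22 and 1.04, and with peaks merged within 1 kb 1.27 and 1.01. The median distance from a fetal-only peak to the nearest shared peak of its list was 20.5 kb, with quartiles of 5.82 and 61.6 kb. Shared fetal peaks lay a median of 16.1 kb from the next shared peak, with quartiles of 4.92 and 43.7 kb. Adult-only peaks were at 15.9 kb, with quartiles of 4.21 and 46.3 kb, against 14.6 kb between shared adult peaks, with quartiles of 3.99 and 41.3 kb. Within 5 kb of a shared peak were 22.6% (21.7 to 23.5) of fetal-only and 27.7% (25.8 to 29.7) of adult-only peaks. Beyond 100 kb were 1263 fetal-only peaks (15.5%) and 222 adult-only peaks (10.9%), compared with 10.2% and 9.78% of shared peaks.

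The marks of adult-only peaks differed with this distance. H3K4me3 of either stage was present at 38.5% (31.1 to 46.2) of adult-only peaks under 1 kb from a shared peak, at 31.2% (26.7 to 36.0) of those at 1 to 5 kb and at 72.5% (66.1 to 78.3) of those beyond 100 kb. Fetal H3K27me3 was present at 8.88% (5.05 to 14.2), 8.38% (5.84 to 11.6) and 47.7% (41.0 to 54.5) of the same peaks. For fetal-only peaks in these 3 classes, the H3K4me3 shares were 13.1% (10.4 to 16.1), 9.59% (8.03 to 11.3) and 15.9% (13.9 to 18.1). The fetal H3K27me3 shares were 3.14% (1.87 to 4.92), 1.42% (0.84 to 2.23) and 4.51% (3.44 to 5.81). At fetal-only peaks the intervals of the nearest and the farthest class overlapped for both marks. Those of the class at 1 to 5 kb and the farthest class did not, so both marks were also more frequent at distant fetal-only peaks than at those at 1 to 5 kb. Width and score hardly followed distance. Median widths of fetal-only peaks were between 1238 and 1377 bp in 5 distance classes and median percentiles between 20.2 and 24.5.

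**Figure D5:**
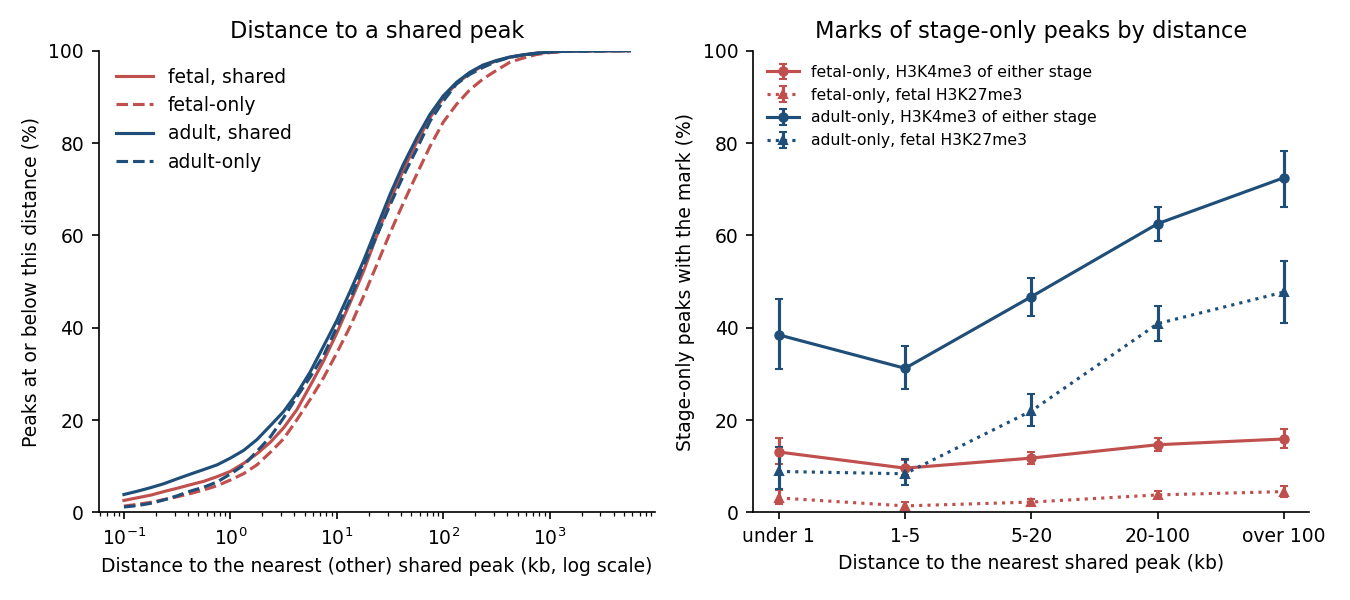
Left, cumulative share of H3K27ac peaks (y axis, percent) by distance to the nearest shared peak, or for shared peaks to the next shared one (x axis, kb, log scale). Right, share of fetal-only (red) and adult-only (blue) peaks with H3K4me3 of either stage (circles) or fetal H3K27me3 (triangles) by distance, with 95% exact intervals. Fetal-only peaks lie farthest from shared peaks (median 20.5 kb), and fetal H3K27me3 at adult-only peaks goes from 8.38% at 1 to 5 kb to 47.7% beyond 100 kb.

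The promoter-type stage-only peaks were the more distant ones at both stages. Fetal-only peaks with H3K4me3 were a median of 28.1 kb from a shared peak and those without 19.6 kb. For adult-only peaks these medians were 24.7 and 9.19 kb. The 2 fetal-only peaks farthest from a shared peak were small and of low score. On chromosome 2 from 98505028 to 98505480 a peak of 453 bp lay 2955 kb away and was covered by fetal H3K27me3 over its full width. Peaks were not checked here against a list of regions with artificially high signal, and this stretch of chromosome 2 is often on such lists. On chromosome 12 from 47920489 to 47921196 a peak of 708 bp lay 2549 kb away with H3K4me3 at both stages and fetal H3K27me3 over 616 bp. The 2 farthest adult-only peaks were on chromosome 1 from 103798580 to 103799641 (1062 bp, 3760 kb away, with adult H3K4me3 over its full width) and on chromosome 17 from 91396585 to 91398594 (2010 bp, 2399 kb away, with H3K4me1 at both stages).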

How the data were processed

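H3K27ac was measured by chromatin immunoprecipitation and single-end sequencing, with libraries from a ThruPLEX DNA-Seq kit, per the labels' protocols. Bowtie2 2.2.2 and the mm9 build are named, per the submitters' processing notes. The deposited lists give position, name and score of each peak. MACS appears in the name of each peak in the authors' lists. The settings of the caller, the control and filters are not given in the sources used here, and neither is the unit of the authors' score, which starts at 50 and piles up at 3100. Lists titled combined were taken as 1 call on 2 pooled replicates. Single libraries and inputs were not analysed here, and the depth behind each list is unknown.

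Peaks of all 8 lists on chromosomes 1 to 19 were used. Shared meant an overlap of at least 1 bp with the other stage's H3K27ac list. Distances run from edge to edge, the marks of a peak are those overlapping by 1 bp, and bins count region midpoints. Percentiles give ties the mean rank. Only Clopper-Pearson intervals (95%) are given, with no test, since 1 list per stage has no replicate error. Regions named are the widest, the highest-scoring and the most distant stage-only peaks, the longest runs, the most unequal pairs, the peaks over most peaks of the other stage, and the fullest bins. These rules and the regions' selection were set with earlier results of these data known. The only gene positions at hand were of GRCm38, so no gene was named and planned gene lists were not run. The interval code gave the same answers as a brute-force count on simulated lists. In a further check, 200 peaks of the fetal list of 23368 were moved by a few bp and matched to that list. All 200 were recovered, with 0 false ones, but recovery was fixed in advance because each moved peak still overlapped its original. Alternatives used better-scoring peaks, equal numbers of peaks, merged peaks, 50% overlap, other bins, other distances and added X and Y. Software versions were scipy 1.17.1, pandas 2.3.3, numpy 2.4.6 and matplotlib 3.10.9 under Python 3.11.15.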

Additional observations from a re-analysis of the deposited data

Results flagged for a closer look

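Chromosome X and unplaced contigs took no part in the comparison. They are listed here because each held more than 3 H3K27ac peaks per list, which is a limit for listing and not a test. On chromosome X, 426 fetal and 368 adult peaks were listed. Of the fetal X peaks 75.4% (71.0 to 79.4) overlapped an adult one, and of the adult X peaks 88.0% (84.3 to 91.2) had a fetal counterpart, compared with 65.1% and 88.6% on chromosomes 1 to 19. Unplaced contigs held 23 fetal and 16 adult peaks.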

How the results depend on the processing

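Of 86 values computed for 29 results under other settings, 42 were within the spread allowed and 44 moved. The order of shared and fetal-only peaks turned among better-scoring peaks for fetal H3K4me1 and for adult H3K27me3, and the order of the stages in the variance to mean ratio turned with equal numbers of peaks. The causes were not tested. Shorter lists gave other shares: with equal numbers of top-scoring peaks 77.4% of fetal and 81.3% of adult peaks were shared, with the better-scoring peaks of both 68.9% and 91.1%, and with better-scoring peaks against the full other list 91.0% and 99.4%. With 50% of the peak covered they were 59.0% and 87.1%, and with peaks merged within 1 kb 67.1% of fetal peaks were shared and 97.2% of shared regions were simple pairs. The variance to mean ratio was 2.69 for fetal-only and 1.64 for adult-only regions in bins of 250 kb, and 2.87 and 3.45 with equal numbers. Among regions without H3K4me3, an alternative chosen after seeing the data, the adult-only excess was 7.24 percentage points.

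Shares with other marks moved as follows. With marks counted within 1 kb, H3K4me3 of either stage was at 15.6% of fetal-only, 77.4% of shared fetal, 53.6% of adult-only and 75.8% of shared adult peaks. Fetal H3K4me1 was at 89.3%, 94.8%, 82.0% and 94.9% of these. Adult H3K27me3 was at 2.36% of fetal-only and 3.01% of shared fetal peaks, and fetal H3K27me3 at 6.81% of shared adult peaks. Among better-scoring peaks, H3K4me3 was at 14.4%, 82.1%, 63.6% and 92.5% in the same order. Fetal H3K4me1 was at 96.1% of fetal-only, 93.3% of shared fetal and 85.5% of adult-only peaks, adult H3K27me3 at 2.01% of fetal-only and 1.37% of shared fetal peaks, and fetal H3K27me3 at 30.9% of adult-only and 4.37% of shared adult peaks. With equal numbers, also chosen after seeing the data for marks, H3K4me3 was at 78.1% of shared fetal, 54.9% of adult-only and 75.7% of shared adult peaks. Fetal H3K4me1 was at 92.1% of fetal-only, 92.1% of shared fetal and 79.5% of adult-only peaks, adult H3K27me3 at 1.93% of shared fetal peaks, and fetal H3K27me3 at 24.1% of adult-only and 4.81% of shared adult peaks.

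No paired analysis was possible because the lists used here combine both replicates of a stage, and leaving out a replicate was not run for that reason. Stage cannot be told apart from differences between the libraries or the peak calls. The depth of each list is unknown.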
